A study of Mus musculus with 9 samples.

Results

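The photoreceptor ribbon synapse genes described here are 10 genes chosen by name, Bsn, Ctbp2, Cacna1f, Cacna2d4, Cabp4, Stx3, Cplx3, Cplx4, Unc119 and Slc17a7, each matched to the single row carrying its symbol among 22337 genes. They were measured by poly(A) RNA-seq in whole mouse retinas at postnatal day 28 (P28), in 3 groups of 3 libraries. WT retinas came from untreated C57BL/6J mice. Both other groups came from rd10 mice, which carry a homozygous missense mutation of Pde6b, the gene of the rod phosphodiesterase beta subunit, and which received either normal saline (NS) or extracellular vesicles secreted by human umbilical cord mesenchymal stem cells (MSC-EVs). Each rd10 eye received 1 µl at P14 and again at P21. The WT mice were not injected and came from another supplier than the rd10 line. Genotype, injection and source therefore cannot be told apart in a comparison with WT. Saline and vesicles were given to rd10 littermates, but Y-linked expression was not balanced between these groups. The labels do not say that libraries of a group came from separate animals, so the p-values below measure the spread between libraries only.

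A photoreceptor signals light by slowing a continuous release of glutamate. Its terminal holds a ribbon, a plate of protein that tethers synaptic vesicles beside voltage-gated calcium channels of the Cav1.4 type, and the calcium entering through these channels drives the fusion of vesicles facing bipolar and horizontal cells. Mutations of CACNA1F, CACNA2D4 and CABP4 in people are known causes of night blindness and of cone-rod synaptic disorders. Several of the 10 genes are not particular to photoreceptors: bipolar cells also have ribbons, bassoon is also a protein of conventional synapses, CtBP2 is also a widely expressed transcriptional corepressor, and complexin 3 is also found in bipolar and amacrine cells.

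In NS-treated rd10 retinas, 5 of the 10 genes were called lower than in WT: Cabp4, Unc119, Slc17a7, Cacna1f and Cplx4 stood at 30.2%, 31.5%, 43.2%, 47.4% and 48.5% of their WT levels. Stx3, Cacna2d4, Ctbp2 and Bsn fell less, and Cplx3 was the gene of the 10 that stood higher, by 0.23 on the log2 scale. With MSC-EVs none of the 10 was called different from NS. A call here means an adjusted p under 0.05 (edgeR quasi-likelihood test, Benjamini-Hochberg adjustment over all tested genes) together with a log2 fold change of at least 1 in size. In the comparison of NS with WT, 3.56% of 14644 tested genes were called lower and 9.16% higher, against 5 and 0 of the 10. These were 522 and 1341 genes, a split that became 997 and 1034 when libraries were scaled on inner-retina markers (horizontal, amacrine and ganglion cell genes) in place of TMM (trimmed mean of M-values), and 7 of the 10 genes were then called lower. By adjusted p alone, 30.1% of all tested genes were lower and 31.2% higher, against 9 and 1 of the 10. The median log2 fold change was -0.96 over the 10 genes and 0.01 over all tested genes. The 3 NS and the 3 WT libraries did not overlap for any of the 10 genes, and for 66.9% of all tested genes.

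**Figure D1:**
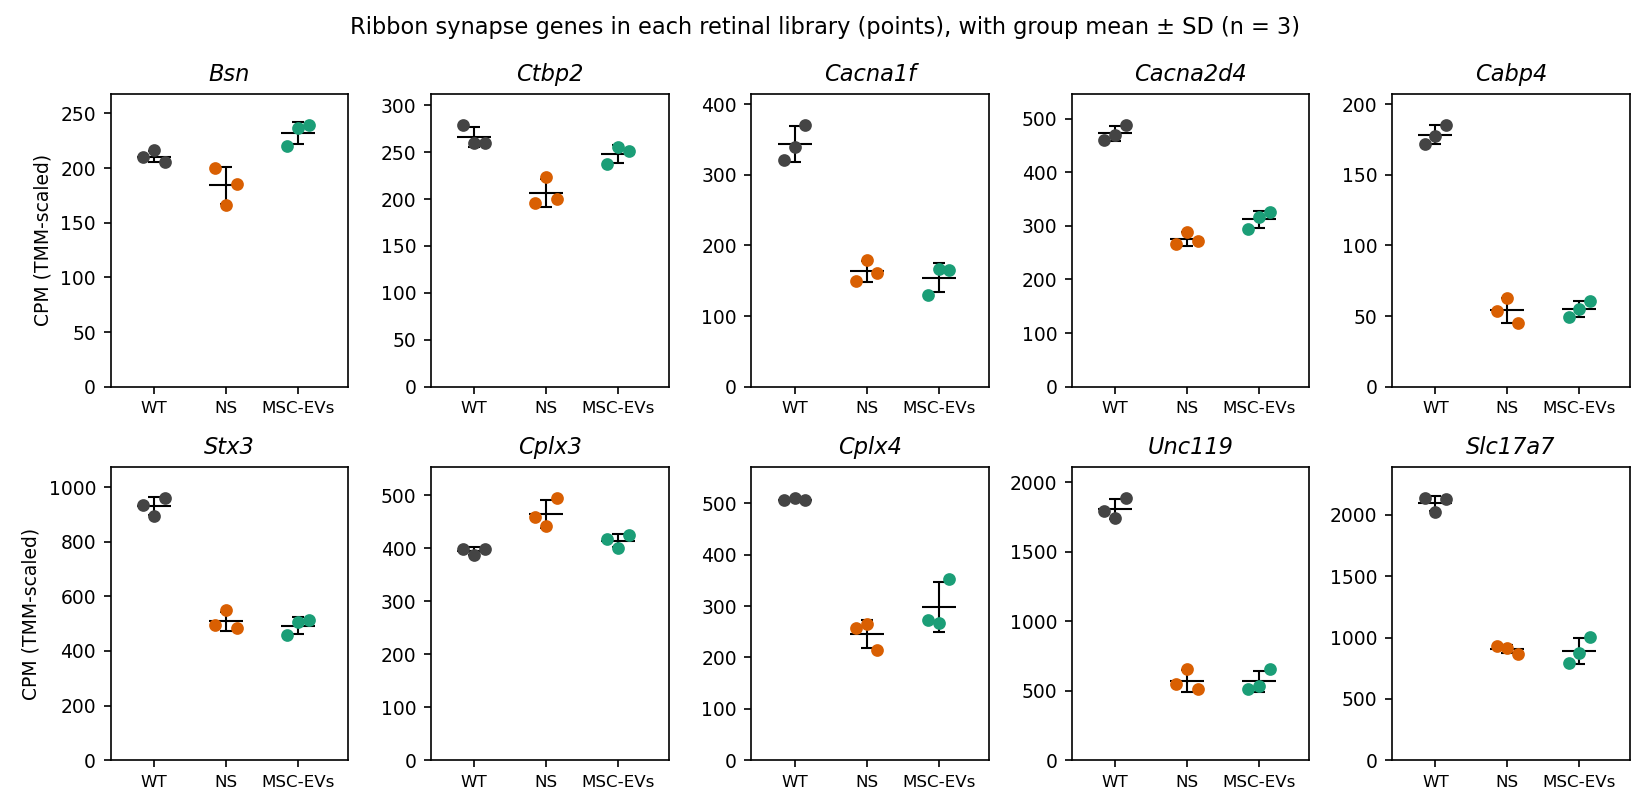
Levels of the 10 genes in CPM (counts scaled to library size with TMM factors) in each of the 9 libraries (points), with the mean and SD of each group (n = 3), each panel starting at 0. The WT points of 9 genes lie above the NS points (mean 178 against 54.0 CPM for Cabp4), those of Cplx3 lie below the NS points, and the NS and MSC-EVs points of Slc17a7, Unc119, Cabp4, Stx3 and Cacna1f overlap.

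The 9 libraries held 19491717 to 62532343 estimated counts, MSC-EVs replicate 3 being the deepest and the other 8 holding 28545619 or fewer. None of the rod, cone, bipolar, horizontal, amacrine, ganglion or Müller glia markers was at 0 throughout any group. The same held for the lens, pigment epithelium and Y-linked genes, so this is no check of retinal identity. The summed level of 10 rod markers was 76747 to 82247 CPM in WT, 15768 to 22554 CPM with NS and 16365 to 22611 CPM with MSC-EVs. In bulk retina, fewer cells of a type and less RNA per cell cannot be told apart. Pde6b itself stood at 2501 CPM ± 96.4 (SD, n = 3) in WT and 534 CPM ± 83.0 with NS, but the mutation changes the protein and its RNA level is no check of the labels. The summed level of 4 Y-linked genes was 183 and 189 CPM in the first and second MSC-EVs libraries and under 0.6 CPM in the other 7 libraries. The sex of the mice was not labelled. As Y-linked expression was seen with MSC-EVs only, sex and vesicles cannot be fully told apart when MSC-EVs are compared with NS or WT.

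Bassoon, encoded by Bsn, is the large scaffold protein that anchors the ribbon to the membrane of the rod terminal. Bsn was at 210, 216 and 205 CPM in WT, at 200, 166 and 186 CPM with NS, while the MSC-EVs libraries gave 220, 236 and 239 CPM. All NS libraries were lower than all WT libraries, and all MSC-EVs libraries were higher than both. Against WT, Bsn with NS fell by 0.19 on the log2 scale (SE 0.07, edgeR adjusted p = 0.0272), a small change that did not reach the limit of a call. Without replicate 1 or 2 of WT, or replicate 2 or 3 of NS, its adjusted p was 0.0549 to 0.0974. On the authors' FPKM scale (fragments scaled to library size and transcript length), its level was 17.4 ± 0.8 (SD, n = 3) in WT and 18.8 ± 1.1 with NS, the opposite order.

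The 2 scales differ in 2 steps, the TMM factors, which enter CPM and not FPKM, and the transcript length, which enters FPKM only. The TMM factors were 0.920 to 0.932 in WT and 1.037 to 1.052 with NS, and without them Bsn stood at 195 CPM ± 6.3 (SD, n = 3) in WT and 192 ± 17 with NS, a log2 ratio of -0.02. Dividing CPM without TMM factors by FPKM returned 1.815 kb for Cplx4 in each group, the full length of its longest annotated transcript (1815 bases), so the quotient is the length the authors' quantification assigned. For Bsn that length was 11.8, 11.2 and 10.7 kb in WT, 11.5, 9.56 and 9.71 kb with NS, and 12.7, 13.1 and 12.9 kb with MSC-EVs. The MSC-EVs libraries stood above the other 6, and the NS and WT libraries overlapped. Bsn has 2 annotated transcripts, the longer of 15938 bases, and reads of both enter its single count.

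**Figure D2:**
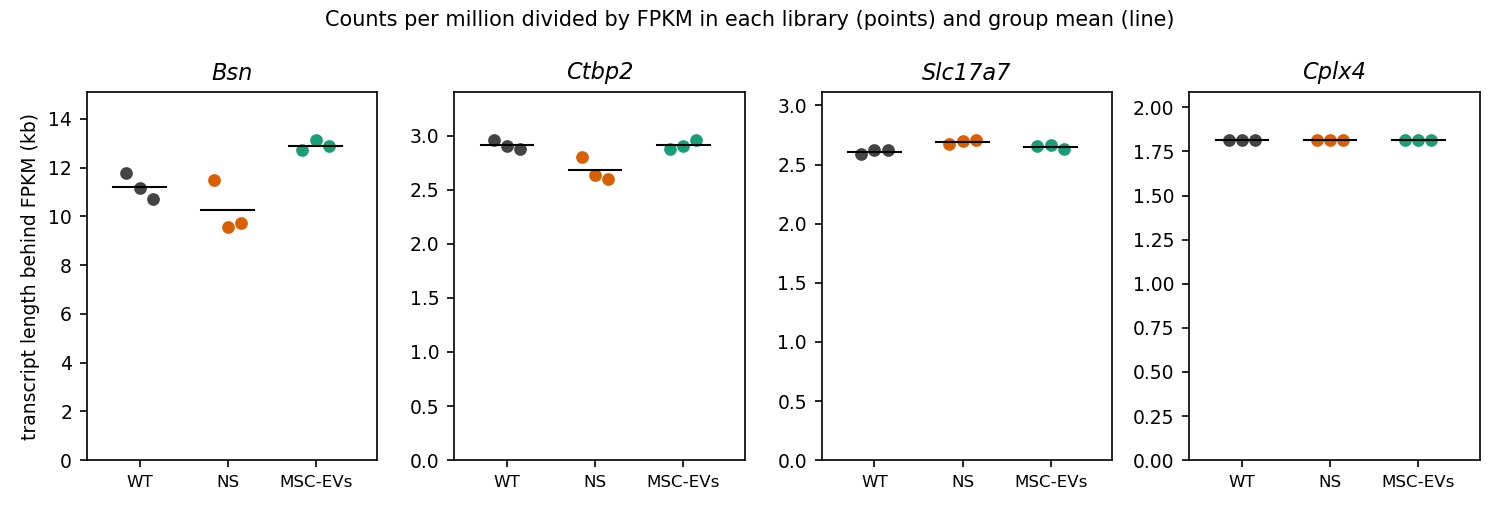
Transcript length in kilobases behind the FPKM value (CPM without TMM factors divided by FPKM) of Bsn, Ctbp2, Slc17a7 and Cplx4 in each library (points), with group means (lines), each axis starting at 0. Cplx4 stays at 1.815 kb throughout, Bsn ranges from 9.56 to 13.1 kb and Ctbp2 is shorter in the 3 NS libraries, at 2.60 to 2.80 kb, than in the other 6.

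Ctbp2 gives rise, from separate starts, to the corepressor CtBP2 and to RIBEYE, the main building block of the ribbon, and one count covers both. Ctbp2 was at 279, 260 and 260 CPM in WT, 196, 224 and 200 CPM with NS, while the MSC-EVs libraries gave 237, 256 and 252 CPM. The NS libraries were the lowest 3, and the MSC-EVs libraries lay between them and WT. With NS it fell by 0.37 on the log2 scale (SE 0.06, edgeR adjusted p = 0.000265). By FPKM the groups overlapped, at 83.2 to 87.1 in WT and 72.6 to 88.7 with NS, and the difference was -0.07 on the log2(FPKM + 1) scale (limma adjusted p = 0.418). The length assigned to it was 2.91 kb in WT, 2.68 kb with NS and 2.91 kb with MSC-EVs. Ctbp2 has 20 annotated transcripts, its counts carry decimals, and 4.07% of its 50-base stretches also occur in transcripts of Fgfr2, with which it shares 314 exonic bases, so its counts depend on how the authors divided reads. Whether RIBEYE or CtBP2 transcripts changed was not tested.

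Of the 10 genes, 3 concern the calcium channel of the ribbon. Cacna1f encodes its pore and Cacna2d4 the accessory alpha2delta-4 subunit. Cabp4 encodes a calcium-binding protein that attaches to the channel and lets it open at lower voltage. All 3 fell with NS, and not by the same amount.

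Cacna1f was at 321, 340 and 371 CPM in WT, 150, 180 and 161 CPM with NS, while the MSC-EVs libraries gave 130, 167 and 165 CPM. Every WT library stood above every rd10 library, and the rd10 groups overlapped. The fitted log2 fold change with NS was -1.08 (95% confidence interval -1.24 to -0.92, edgeR adjusted p = 1.60e-07). By limma on log2(FPKM + 1) it was -0.88, short of a call. Cacna1f lies on the X chromosome. The MSC-EVs libraries with Y-linked expression gave 130 and 167 CPM and the one without gave 165 CPM.

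Cacna2d4 was at 460, 470 and 488 CPM in WT, 265, 289 and 272 CPM with NS, while the MSC-EVs libraries gave 294, 317 and 326 CPM. The 3 groups were fully separated, in the order WT, MSC-EVs, NS. With NS the fitted log2 fold change was -0.78 (SE 0.06, edgeR adjusted p = 2.06e-07), short of a call.

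Cabp4 and Unc119 gave the lowest values among the 10 genes, Cabp4 the lower of the pair except with the length and GC trend of each library removed (-1.70 against -1.74), and their intervals overlapped. Cabp4 was at 172, 177 and 185 CPM in WT, 53.7, 62.9 and 45.4 CPM with NS, while the MSC-EVs libraries gave 49.1, 54.7 and 60.6 CPM. The rd10 groups overlapped, far below WT. Its fitted change with NS was -1.73 (95% confidence interval -1.95 to -1.51, edgeR adjusted p = 2.16e-07), and 0.751% of all tested genes had a value as low or lower. Cabp4 shares 131 exonic bases with Gpr152 on the opposite strand, and the sources do not say that the libraries or counts used strand.

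Relative to Cacna1f, mean Cacna2d4 was higher and mean Cabp4 lower with NS than in WT. The FPKM ratio of Cacna2d4 to Cacna1f was 1.43 ± 0.06 (SD, n = 3) in WT, 1.77 ± 0.09 with NS and 2.14 ± 0.21 with MSC-EVs. The ratio of Cabp4 to Cacna1f was 2.19 ± 0.07 in WT, 1.39 ± 0.17 with NS and 1.50 ± 0.10 with MSC-EVs. The libraries of NS and WT did not overlap in either ratio, and each gave a two-sided exact permutation p of 0.1, the smallest that 3 against 3 libraries allow. Over the 9 such tests run, including those of the complexin ratio below, that p became 0.1125 after Benjamini-Hochberg adjustment, so these differences could not pass a threshold of 0.05 in this design.

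Vesicle fusion is represented by Stx3, the syntaxin that ribbon synapses use in place of syntaxin 1, and by complexins 3 and 4, the complexins of retinal ribbon synapses, which bind the assembled fusion machinery. Stx3 was at 936, 894 and 959 CPM in WT, 495, 549 and 483 CPM with NS, while the MSC-EVs libraries gave 458, 508 and 514 CPM. The rd10 groups overlapped, and each rd10 library held less Stx3 than each WT library. The fitted log2 fold change with NS was -0.87 (SE 0.06, edgeR adjusted p = 2.74e-07).

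Cplx4 was at 506, 509 and 505 CPM in WT, 257, 265 and 215 CPM with NS, while the MSC-EVs libraries gave 273, 266 and 353 CPM. WT was again apart, and the second MSC-EVs library exceeded the highest NS library by less than 1 CPM. With NS the fitted change was -1.05 (95% confidence interval -1.21 to -0.88, edgeR adjusted p = 2.79e-07). Leaving out the third NS library gave -0.96 and limma on log2(FPKM + 1) gave -0.87, both short of the limit of a call.

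Cplx3 went the other way. It was at 398, 386 and 399 CPM in WT, 459, 441 and 494 CPM with NS, while the MSC-EVs libraries gave 417, 400 and 424 CPM. The NS libraries were the highest 3, and each MSC-EVs library stood slightly above WT. The rise with NS was 0.23 on the log2 scale (SE 0.06, edgeR adjusted p = 0.00332). Its size and direction rested on the scaling. Under the inner-retina scaling the value was -0.04 (edgeR adjusted p = 0.735), and the median of all tested genes moved to -0.26. By limma on log2(FPKM + 1), which uses no TMM factors, the rise was larger, at 0.42 (limma adjusted p = 0.000138).

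The paired complexins thus exchanged their order. The FPKM ratio of Cplx4 to Cplx3 was 1.82, 1.93 and 1.91 in WT, 0.763, 0.891 and 0.668 with NS, and 0.959, 0.917 and 1.25 with MSC-EVs. The 3 groups did not overlap. Each pair of groups gave the smallest two-sided exact permutation p of 0.1 (0.1125 after adjustment over 9 tests).

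Unc119 encodes a carrier of lipid-modified proteins that is abundant in photoreceptor inner segments and terminals, and that moves transducin between compartments of the rod. Unc119 was at 1792, 1743 and 1883 CPM in WT, 545, 659 and 509 CPM with NS, while the MSC-EVs libraries gave 509, 535 and 653 CPM. The rd10 groups covered almost the same range. The fitted change with NS was -1.66 (95% confidence interval -1.86 to -1.47, edgeR adjusted p = 3.02e-08).

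Slc17a7 encodes VGLUT1, the transporter that fills synaptic vesicles with glutamate in photoreceptors and bipolar cells. Slc17a7 was at 2135, 2020 and 2128 CPM in WT, 933, 916 and 869 CPM with NS, while the MSC-EVs libraries gave 794, 871 and 1007 CPM. NS libraries varied little, and MSC-EVs libraries lay on both sides of them. The fitted change with NS was -1.21 (95% confidence interval -1.35 to -1.08, edgeR adjusted p = 1.48e-08).

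The starts of some of the genes are shown because Unc119, Slc17a7 and Stx3 fell while Cplx3 did not. RefSeq promoters (build GRCm38.p6) were found for 7 of the 10 genes, as 10 entries. The 250 bases before each start were searched on both strands for TAATCC, the core recognised by the photoreceptor factor CRX, and for TGCTGA, the half-site of the rod factor NRL, with their reverse complements GGATTA and TCAGCA. The letters do not overlap one another in these entries. TAATCC or its complement was in 6.25% and TGCTGA or its complement in 16.1% of 32851 promoters. Capitals mark a match. The windows are Unc119 first start chr11:78343245-78343481 (plus strand, 13 exonic bases left out), Unc119 start within the gene chr11:78345334-78345583 (plus), Slc17a7 chr7:45163671-45163920 (plus), Stx3 chr19:11819404-11819653 (minus) and Cplx3 chr9:57606282-57606531 (minus).
Unc119 first start: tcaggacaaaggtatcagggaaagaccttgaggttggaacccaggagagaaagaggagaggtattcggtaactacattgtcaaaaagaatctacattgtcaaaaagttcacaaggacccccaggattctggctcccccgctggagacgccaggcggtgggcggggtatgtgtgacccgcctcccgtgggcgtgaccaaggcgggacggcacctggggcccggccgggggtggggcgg
Unc119 start within the gene: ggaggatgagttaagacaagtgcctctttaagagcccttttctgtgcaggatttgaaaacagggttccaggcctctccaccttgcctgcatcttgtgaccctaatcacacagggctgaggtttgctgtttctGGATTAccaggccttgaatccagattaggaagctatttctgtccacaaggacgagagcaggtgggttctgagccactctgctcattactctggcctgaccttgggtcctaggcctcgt
Slc17a7: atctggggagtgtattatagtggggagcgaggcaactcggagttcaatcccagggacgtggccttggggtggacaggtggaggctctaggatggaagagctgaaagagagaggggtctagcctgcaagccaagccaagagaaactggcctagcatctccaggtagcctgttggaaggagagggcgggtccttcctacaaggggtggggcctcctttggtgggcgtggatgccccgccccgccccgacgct
Stx3: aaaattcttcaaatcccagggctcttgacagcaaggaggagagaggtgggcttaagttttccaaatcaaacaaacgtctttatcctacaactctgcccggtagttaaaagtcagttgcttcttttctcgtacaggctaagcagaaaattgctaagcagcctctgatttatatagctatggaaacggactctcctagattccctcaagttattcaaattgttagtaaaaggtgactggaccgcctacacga
Cplx3: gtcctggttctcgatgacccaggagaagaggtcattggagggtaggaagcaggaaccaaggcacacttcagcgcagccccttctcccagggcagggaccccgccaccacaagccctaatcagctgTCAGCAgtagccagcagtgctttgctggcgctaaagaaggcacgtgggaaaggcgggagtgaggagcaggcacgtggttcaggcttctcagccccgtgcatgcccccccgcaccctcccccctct
Of these 5 windows, the Unc119 start within the gene held a CRX core and Cplx3 held an NRL half-site, whose first bases lie at -118 and -125 relative to the start. The other 3 held neither set of letters. Among the 5 entries not printed, a further Unc119 start within the gene held an NRL half-site at -198 and a Ctbp2 start held a CRX core at -121, so that the NRL letters were found both at a gene that fell and at Cplx3. The Ctbp2 match lies in annotated exons, as do 243 of the 250 bases before that start.

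Between the 10 genes, levels were compared per length, as FPKM. In WT, the order was Unc119 (1460 FPKM), Slc17a7 (743), Stx3 (349), Cplx4 (258), Cplx3 (137), Cabp4 (115), Ctbp2 (84.5), Cacna2d4 (75.4), Cacna1f (52.7) and Bsn (17.4), with no overlap of libraries between neighbours. With NS, Cplx3 (184 FPKM) stood above Cplx4 (142), and Cabp4 (39.4) stood below Ctbp2 (80.8) and Cacna2d4 (49.8), again without overlap between neighbours. With MSC-EVs, the libraries of Stx3 and Cplx4 overlapped, and so did those of Cplx4 and Cplx3. The span from the highest to the lowest gene narrowed from 1460 and 17.4 FPKM in WT to 514 and 18.8 FPKM with NS.

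**Figure D3:**
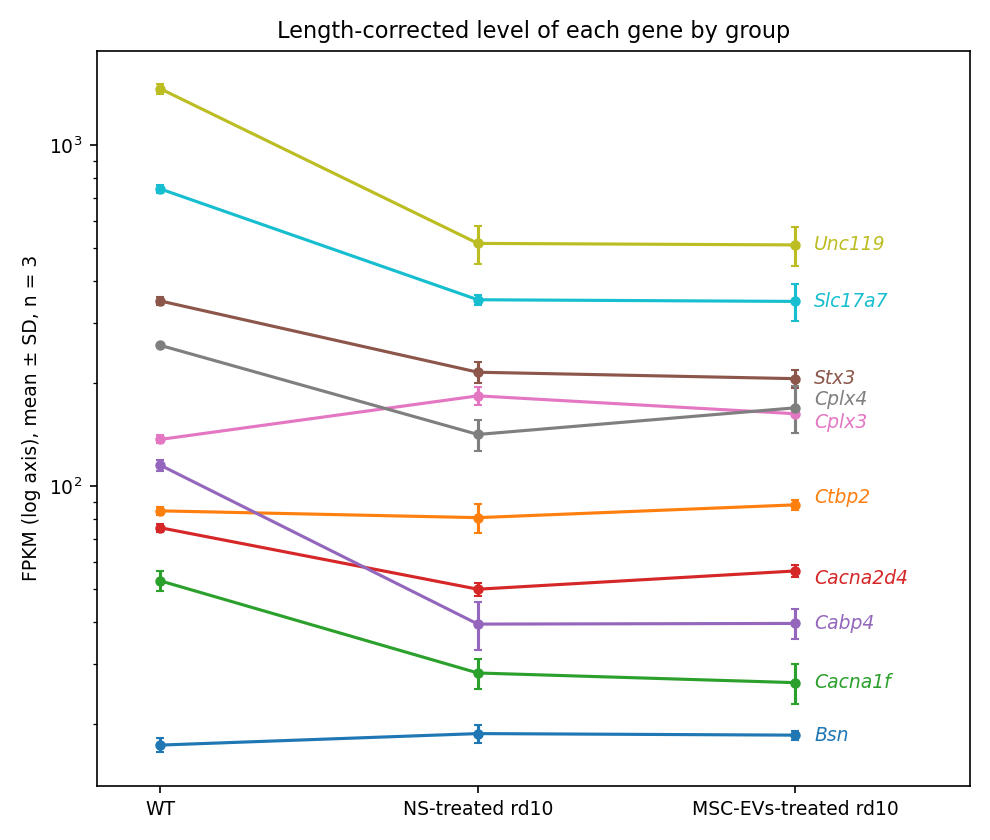
Mean FPKM of each gene in the 3 groups on a log axis, with SD (n = 3). Lines join the same gene and cross where the order changes: Cplx3 rises from 137 to 184 FPKM while Cplx4 falls from 258 to 142 FPKM, and Cabp4 drops from 115 to 39.4 FPKM, past Ctbp2 and Cacna2d4.

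MSC-EVs and NS were compared to ask whether the vesicles changed the level of these genes in the degenerating retina. None of the 10 genes passed in the edgeR fit of these 6 libraries, with or without the limit on fold change. At an unadjusted p under 0.05, 4 of the 10 genes passed, Bsn, Ctbp2, Cacna2d4 and Cplx3 (edgeR), as did 20.2% of all tested genes. Other settings took the scaffold genes under 0.05 by adjusted p, though short of a call: Bsn and Ctbp2 had 0.00531 and 0.0168 with the DESeq2 Wald test and 0.0172 and 0.0288 with all 9 libraries in one edgeR fit, and Bsn had 0.0341 under the inner-retina scaling. Over all 14765 tested genes 0.0610% were called and 1.16% had an adjusted p under 0.05. NS and MSC-EVs values were fully separated for 5 of the 10 genes, Bsn, Ctbp2, Cacna2d4 and Cplx4 being higher with MSC-EVs and Cplx3 lower, and for 26.2% of all tested genes. The median log2 fold change of the 10 genes was 0.01.

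Bsn, Cplx4 and Ctbp2 had the 3 largest fitted differences between the rd10 groups, none of them passing. Bsn was 0.34 higher on the log2 scale with MSC-EVs (95% confidence interval 0.16 to 0.51, edgeR adjusted p = 0.0666), with adjusted p-values of 0.00531 to 0.943 over the other settings. Ctbp2 was 0.27 higher (95% confidence interval 0.11 to 0.43, edgeR adjusted p = 0.0858). In the same comparison, changes followed transcript length: the median log2 fold change was -0.13 over the 2950 genes with the shortest transcripts, 0.12 over the 2950 with the longest, and 0.17 over 398 genes with transcripts of at least 10000 bases. With each library's trend with length and GC content removed, a setting added after seeing the data, Bsn was 0.18 higher (adjusted p = 0.203) and Ctbp2 0.28 higher (adjusted p = 0.108). By FPKM, Bsn differed by -0.01.

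For Cplx4 the difference was 0.28 (95% confidence interval -0.02 to 0.58, edgeR adjusted p = 0.274), and it was 0.13 without the third MSC-EVs library and 0.54 with Y-linked expression as a covariate. With that covariate the difference rests almost wholly on the third MSC-EVs library, the only MSC-EVs library without Y-linked expression. Cacna2d4 differed by 0.19 (95% confidence interval 0.04 to 0.34, edgeR adjusted p = 0.161), or 0.11 with the length and GC trend removed. Cplx3 differed by -0.16 (95% confidence interval -0.30 to -0.02, edgeR adjusted p = 0.203).

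The 4 genes that had fallen most apart from Cplx4 gave values near 0 between the rd10 groups. The difference was 0.03 for Cabp4 (95% confidence interval -0.26 to 0.32), -0.01 for Unc119 (-0.30 to 0.29), -0.02 for Slc17a7 (-0.22 to 0.18) and -0.08 for Cacna1f (-0.32 to 0.17). Stx3 differed by -0.04 (-0.21 to 0.13). An adjusted p above 0.05 does not show that the groups were alike, and these intervals give the sizes of change the libraries leave possible.

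**Figure D4:**
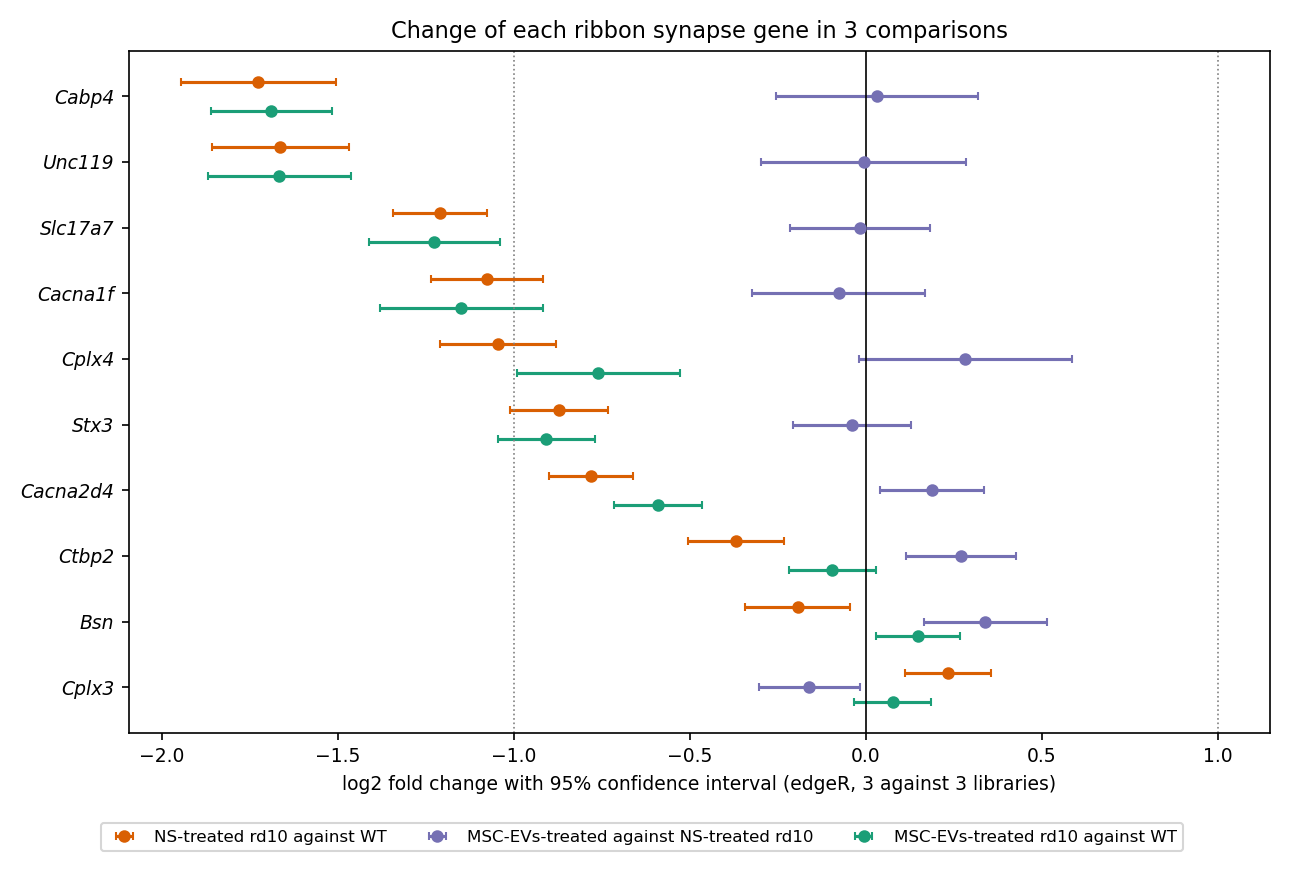
Log2 fold change of each gene (points) with its 95% confidence interval (bars) in the 3 comparisons, from edgeR with 3 against 3 libraries. Dotted lines mark changes of -1 and 1, and intervals of the comparison of MSC-EVs with NS span 0 for Cabp4, Unc119, Slc17a7, Cacna1f, Stx3 and Cplx4.

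Against WT, MSC-EVs-treated rd10 retinas had 4 of the 10 genes called, all of them lower: Cabp4 (-1.69), Unc119 (-1.67), Slc17a7 (-1.23) and Cacna1f (-1.15). Cplx4 was at -0.76 in this comparison, which shares its WT libraries with the comparison of NS with WT. Stx3 was at -0.91 and Cacna2d4 at -0.59. By adjusted p alone, 7 of the 10 genes were lower and 1, Bsn, was higher by 0.15 (edgeR adjusted p = 0.0397). Bsn did not pass without the filter on low counts, with all 9 libraries in one fit, with the replicate number as a block (adjusted p = 0.0559, 0.0926 and 0.0590), by FPKM, or when any WT library or replicate 2 or 3 of MSC-EVs was left out (0.0771 to 0.140). With the length and GC trend removed, Bsn turned to -0.08 (adjusted p = 0.201), and it was at -0.03 under the inner-retina scaling. Ctbp2 (-0.10, adjusted p = 0.168) and Cplx3 (0.08, adjusted p = 0.211) did not pass in the edgeR fit. By FPKM, however, Cplx3 stood at 137 ± 3.7 (SD, n = 3) in WT and 163 ± 2.9 with MSC-EVs. By limma on log2(FPKM + 1), 1 of the 10 genes, not Bsn, was higher by adjusted p. Over all 14623 tested genes, 3.20% were called lower and 12.2% called in either direction, 27.2% were lower and 28.3% higher by adjusted p alone, and 65.1% did not overlap between the groups, as against all 10 of the 10 genes.

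Other genes of the same synapse were taken from lists. With NS, 30.1% of all tested genes were lower and 31.2% higher by adjusted p, and 3.56% were called lower. Among 11 further active zone and ribbon genes, 3 fell with NS, 3 rose and 5 did not pass by adjusted p, 2 of the falls being calls, with a median of 0.01, or -0.26 under the inner-retina scaling. The 3 that fell were Unc13b, a vesicle priming factor (381 CPM ± 47.8 in WT, 185 ± 12 with NS; log2 fold change -1.05), Cacnb2, the channel's beta subunit (212 ± 12.2 and 103 ± 11.2; -1.04), and Rims2, a scaffold that binds calcium channels (249 ± 2.8 and 132 ± 6.3; -0.92). The 3 that rose, Erc1 (0.47), Rimbp2 (0.39) and Rims1 (0.28), encode active zone scaffolds, and are named after their values were seen. Pclo, the partner of bassoon, was at 258 CPM ± 12.9 in WT and 242 ± 13.3 with NS (-0.09, edgeR adjusted p = 0.202).

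The photoreceptor terminal list, which holds mainly channels, transporters and scaffolds of the terminal and inner segment, had the median farthest from 0 among these 4 synaptic lists. Of its 9 genes, 8 fell with NS by adjusted p, 4 of them as calls, 1 rose, and the median was -0.63. Among the calls was Rcvrn (-1.34), named after its values were seen. It encodes recoverin, a photoreceptor calcium sensor that is not particular to the terminal. Kcnv2, a subunit of a potassium channel that shapes the photoreceptor's voltage response, changed by -2.04. Sv2b, a synaptic vesicle protein, changed by -0.62 and Dlg4, the scaffold PSD-95, by -0.59.

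The trans-synaptic partner list, which mixes genes from both sides of the cleft, split. Of 15 trans-synaptic partner genes, 5 fell with NS, 2 of them as calls, 7 rose and 3 did not pass, with a median of 0.20. Over all tested genes, 30.1% were lower and 31.2% higher by adjusted p. Elfn1 (-1.19) and Egflam (-1.11), whose products photoreceptors display or secrete and which bind partners on bipolar dendrites, fell most. Lrit1, a photoreceptor membrane protein of the synapse, was at 540 CPM ± 13.0 in WT, 311 ± 26.5 with NS and 408 ± 18.7 with MSC-EVs, and passed in both directions (-0.79, edgeR adjusted p = 9.75e-07, then 0.40, adjusted p = 0.0447). Gnb5, the G protein beta subunit that accompanies RGS proteins in rods and bipolar cells, changed by -0.77. Trpm1, the cation channel of ON bipolar cells, rose by 0.37 (adjusted p = 0.000589).

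Of 18 conventional presynaptic genes none was called with NS, 2 fell and 8 rose by adjusted p, and the median was 0.18. The shares of all tested genes were 30.1% lower and 31.2% higher. Syt1, the calcium sensor of conventional release, rose by 0.21 (edgeR adjusted p = 0.010). Snap25 and Syp were at 0.13 and -0.02 and did not pass. Slc17a6, which encodes VGLUT2, the transporter of ganglion cells, gave 0.48 with an adjusted p of 0.0669. Under the inner-retina scaling the medians of the conventional presynaptic, trans-synaptic and other active zone lists turned to -0.08, -0.07 and -0.26, and the number of their genes that rose went from 8, 7 and 3 to 0, 1 and 0, while the photoreceptor terminal list gave -0.90 and the 10 ribbon synapse genes -1.22.

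Between MSC-EVs and NS, 1 gene of each of these 4 lists passed by adjusted p, all higher with MSC-EVs and none as a call: Erc1, Atp2b1, Lrit1 and Syt2, of which Erc1, Atp2b1 and Syt2 are named after their values were seen. Of all tested genes, 1.16% passed in this way. The part of the trend with transcript length in these differences was not tested.

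**Figure D5:**
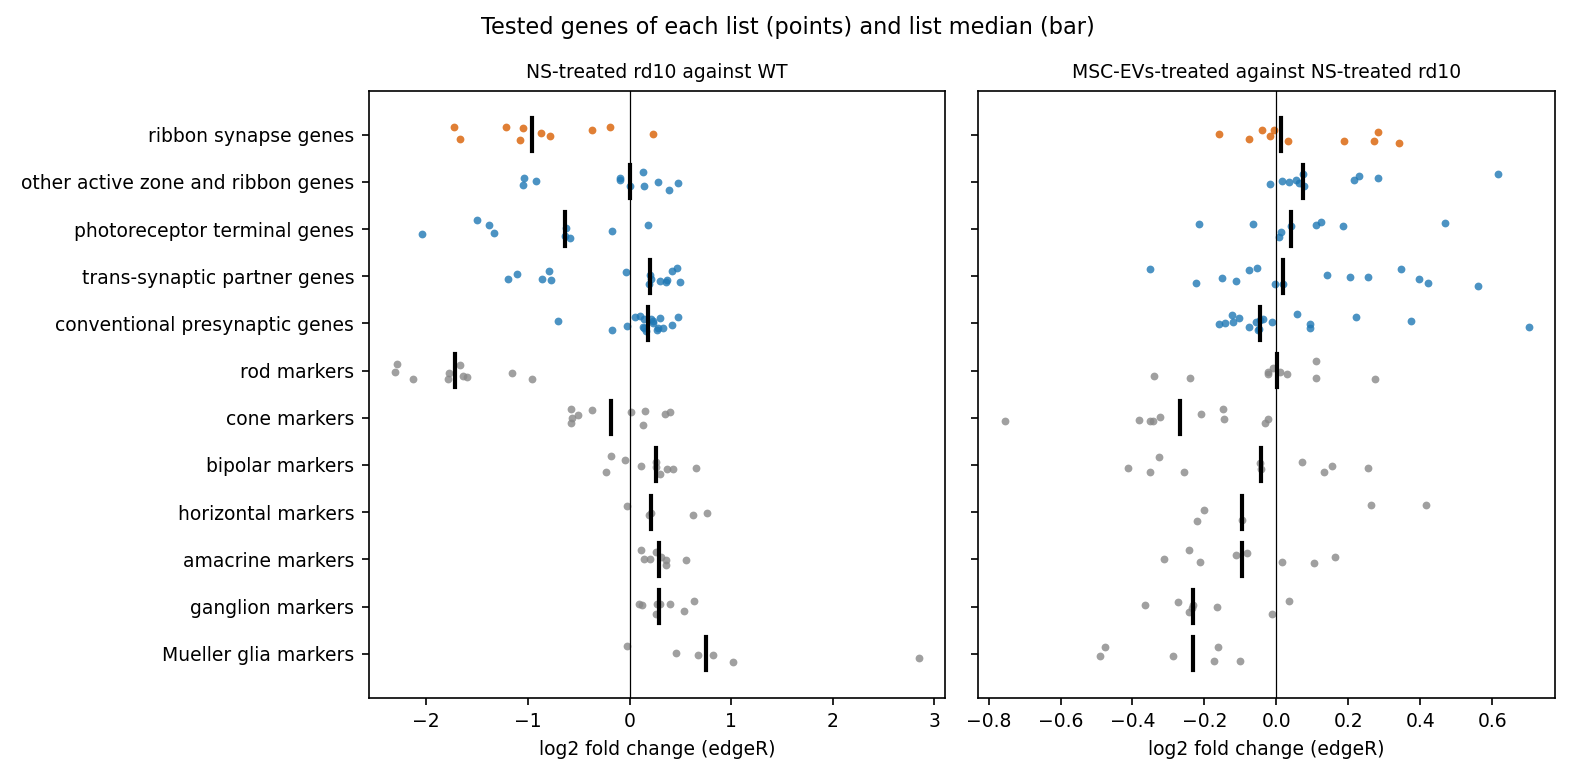
Log2 fold changes of the tested genes of each list (points) and the list median (bar), left for NS against WT and right for MSC-EVs against NS (narrower axis). On the left the ribbon synapse genes (median -0.96) lie between the rod markers (-1.72) and the photoreceptor terminal genes (-0.63), and the bipolar, amacrine and ganglion medians lie at 0.26 to 0.29, or at -0.0034 to 0.02 under the inner-retina scaling.

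Cell type markers moved in different directions. With NS, 9 of 10 rod markers were called lower (median -1.72), as against 0 of 10 cone markers (median -0.18), of which 4 were lower and 2 higher by adjusted p. Under the inner-retina scaling the cone median was -0.45, with 6 lower and 0 higher. The medians were 0.26 for bipolar, 0.22 for horizontal, 0.29 for amacrine and 0.29 for ganglion cell markers, with no call, or -0.0034, -0.05, 0.02 and 0.02 under the inner-retina scaling, which uses the last 3 lists. Microglia and macrophage markers, summed, went from 28.1 to 30.8 CPM in WT to 167 to 214 CPM with NS, and all 7 were called higher. Müller glia markers went from 4211 to 4490 CPM to 5197 to 5902 CPM, with 5 of 6 higher by adjusted p. Pigment epithelium markers summed to 31.8 to 58.4 CPM in WT and 44.6 to 175 CPM with NS, overlapping ranges, with 2 of 6 called higher and a median of 1.45. Lens markers, with no call, summed to 26.1 to 118 CPM and 30.4 to 39.2 CPM. The part of these shifts in the levels of the 10 genes was not tested. Between MSC-EVs and NS, no rod, cone or Müller glia marker passed by adjusted p. The rod median was 0.0011 and the summed rod ranges overlapped, while the cone median was -0.27 and the Müller glia median -0.23, and the summed Müller glia level, 4251 to 4667 CPM with MSC-EVs, did not overlap that with NS. Under the inner-retina scaling these 3 medians were 0.08, -0.17 and -0.13.

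The genes whose pattern over the 9 libraries was most like the median of the 10 genes, by root mean square difference of log2 CPM relative to the WT mean among 14442 candidates, were Dusp7 (0.028), Spring1 (0.053), Rims2 (0.055), Lpcat1 (0.061) and Usp33 (0.062).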

How the data were processed

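Retinal RNA was sequenced after poly(A) selection, in 9 libraries. The authors deposited one table with expected counts and FPKM for each gene and library. The submitters' processing notes name fastp, Bowtie2, HISAT2, StringTie 1.3.1 and RSEM without giving their roles, and the genome build and strand are not given in the sources used here. From the values, FPKM, as deposited, equals CPM (counts scaled to library size) divided by a transcript length that may differ between libraries.

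Expected counts were rounded, and genes passing edgeR's expression filter were tested, each pair of groups on its 6 libraries, with edgeR 4.0.16 (R 4.3.3; TMM scaling, quasi-likelihood test, robust fit, Benjamini-Hochberg adjustment over all tested genes). CPM levels use TMM factors over the 9 libraries. Alternatives used DESeq2 1.42.0 and limma 3.58.1 on log2(FPKM + 1) and log2(FPKM + 0.1). The models were tested on simulated data. The 10 genes and the gene lists were chosen with earlier results of these data known. From each of the 4 synaptic lists the 3 genes of highest mean count and the 2 of largest change with NS were named, except that some are not reported here. Depth ranged from 19491717 to 62532343 counts, at which 1 count was worth 0.0155 to 0.0500 CPM. Overlaps came from GENCODE M21 (GRCm38), and promoters from RefSeq (GRCm38.p6).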

Additional observations from a re-analysis of the deposited data

How the results depend on the processing

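The direction of all 10 genes in the comparison of NS with WT held under every setting, except Cplx3 under the inner-retina scaling (-0.036) and Bsn by FPKM (0.11 with a pseudocount of 1, with and without the filter, and with 0.1). By limma on FPKM, which is not TMM-scaled, 3 of the 10 genes were called lower in place of 5, with either pseudocount and without the filter. Cacna1f and Cplx4 were no longer called, at -0.88 and -0.87 with a pseudocount of 1. Without the limit on fold change, 9 of the 10 genes were lower and 1 higher in the edgeR fit. Over all genes, the counts called lower and higher were 186 and 776 with log2(FPKM + 1), 266 lower with log2(FPKM + 0.1), 188 and 800 without the filter, 997 lower under the inner-retina scaling, and 4410 and 4562 without the limit. Leaving out 1 library kept 4 or 5 of the 10 genes called.

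For MSC-EVs against NS, none of the 10 genes reached the limits of a call under any setting. Over all genes, 1 was called lower and 8 higher, and the counts were 0 and 25 under the inner-retina scaling, 7 and 26 by DESeq2, 12 and 26 with all 9 libraries in one fit, 2 and 4 with log2(FPKM + 1), 4 lower with log2(FPKM + 0.1), 0 and 0 without the FPKM filter, 2 and 2 with the length and GC trend removed, 7 and 21 with Y-linked expression as a covariate, and 37 and 135 without the limit. Leaving out 1 library gave 0 to 49 lower and 0 to 33 higher, the most of each without the second MSC-EVs library, and 0 of each without the third NS or the first MSC-EVs library. At an unadjusted p under 0.05, 2980 genes passed. Genes near 0 changed sign. Under the inner-retina scaling Cacna1f was 0.014, Stx3 0.052, Unc119 0.077 and Slc17a7 0.073. With the Y-linked covariate, where the difference rests almost wholly on the third MSC-EVs library, they were 0.022, 0.024, 0.20 and 0.17. With the length and GC trend removed, Unc119 was 0.15 and Slc17a7 0.017. Bsn by FPKM was -0.013 with a pseudocount of 1, with and without the filter, and -0.014 with 0.1. Leaving out 1 library gave ranges of -0.14 to 0.034 for Cacna1f, -0.078 to 0.15 for Cabp4, -0.076 to 0.018 for Stx3, -0.13 to 0.11 for Unc119 and -0.12 to 0.064 for Slc17a7.

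For MSC-EVs against WT, Bsn turned to -0.026 under the inner-retina scaling and -0.083 with the length and GC trend removed, Cplx3 to -0.10 under the inner-retina scaling, and Ctbp2 to 0.058 with each FPKM setting. Without the limit, 7 of the 10 genes were lower and 1 higher, and over all genes 3980 and 4137. The counts over all genes were 738 lower under the inner-retina scaling, 185 and 767 with log2(FPKM + 1), 272 lower with log2(FPKM + 0.1), and 186 and 824 without the filter. The causes were not tested, and the setting with length and GC was chosen after seeing the data.

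Replicate numbers are shared between groups, but same-numbered libraries did not deviate together in every pair: their correlations were 0.08, 0.21 and 0.27 between NS and MSC-EVs, 0.07, -0.08 and -0.06 between WT and NS, and 0.08, 0.03 and 0.02 between WT and MSC-EVs. With the number as a block, 7 genes were called lower and 14 higher between MSC-EVs and NS, each NS library correlating best with the MSC-EVs library of its own number, and no call among the 10 genes changed in any comparison, although Bsn between MSC-EVs and WT no longer passed by adjusted p alone (0.0590). With 3 libraries a group, a change in the 10 genes was resolved to a standard error of 0.05 to 0.13 on the log2 scale.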
